A study of Saccharomyces cerevisiae with 12 samples.

Results

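The cytosolic ribosomal protein genes of Saccharomyces cerevisiae were followed over 8 h of nitrogen and carbon starvation. The members were the genes whose array name has the form RPL or RPS with a number and an optional A or B, together with the stalk genes RPP0, RPP1A, RPP1B, RPP2A and RPP2B. The rule took 137 of the 6256 genes on the array. They were 76 genes of the large subunit (RPL), 5 of its stalk (RPP) and 56 of the small subunit (RPS). All 137 kept enough values to be tested. Transcripts came from filter cultures of FY4, a prototrophic strain, and were read on 12 two-colour Agilent arrays. The nitrogen-starved cells (6 arrays) were moved to YNB/agarose that lacked ammonium but held glucose, and the carbon-starved cells (6 arrays) to YNB/agarose that lacked glucose but held ammonium. Each starvation had 1 array per time, with times of 10, 30 and 60 min and of 120, 240 and 480 min, and every array set the starved cells (Cy5, red) against cells of the zero timepoint, growing on YNB with glucose and ammonium (Cy3, green). A value is the log2 ratio of starved over zero-timepoint signal, so that -1 is a halving, after each array was scaled to equal red and green totals. Since there was 1 array per starvation and time and no dye swap, the 6 times of a starvation served as its observations, and every SD and standard error (SE) below holds the course over time as well as the error of measurement.

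Ribosomal proteins build the subunits that read messenger RNA and join amino acids. The large subunit forms peptide bonds, its stalk of acidic P proteins recruits translation factors, and the small subunit decodes the message. Growing yeast spends a large part of its RNA polymerase II transcription on these genes, most of which exist as a pair of near-identical paralogs, A and B, that remain from an ancient genome duplication. Their promoters are bound by Rap1, Fhl1 and Ifh1, and the kinases TORC1 and PKA, which respond to nutrients, act on them. A fall of these messages as a group is among the best known responses of yeast to the loss of a nutrient.

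Before the results, some facts on the arrays apply to all of them. The share of spots with red signal well above background was 42.7 to 78.4% on the arrays of nitrogen starvation at 10 min and of carbon starvation at 10, 30 and 60 min, and 84.8 to 93.4% on the other 8. The scanner ratios of these 4 arrays correlated with the column of the same label in the published table, as far as it is held here, at r of 0.03, 0.63, 0.63 and 0.42, while the other 8 reached 0.999 or more. Results are therefore also given for the 8 arrays alone, and for 120, 240 and 480 min alone, where both starvations have such arrays. As a check of the labels, 4 of 5 genes that ammonium represses (GAP1, DAL5, DUR3 and DAL80) rose in nitrogen starvation, where the median of the 5 was 0.62 and 0.42 at 10 and 30 min and 2.20 to 2.96 later. All 5 genes that glucose represses (PCK1, FBP1, JEN1, MLS1 and ICL1) rose in carbon starvation. Their median there was only 0.19 at 10 min, where PCK1 had no value, and -0.18 at 30 min. In nitrogen starvation their median was 0.59 at 10 min, where only MLS1 and ICL1 had values. It was 0.50, 1.65, 1.70, 2.36 and 3.08 from 30 to 480 min, and MLS1 was called raised. Of the 6 nitrogen arrays, the zero-timepoint channel was well above background on 1 for PCK1, 2 for JEN1, 3 for MLS1, 5 for FBP1 and 6 for ICL1. Of the 6 carbon arrays it was so on 3 for PCK1, 5 each for JEN1 and MLS1, and 6 each for FBP1 and ICL1. The median of all genes tested lay between -0.19 and 0.58 in nitrogen starvation and between -0.97 and 0.13 in carbon starvation, so members are read beside it.

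Ribosomal protein transcripts fell as a body in both starvations, reached their lowest level at 120 min and were partly back by 480 min. In nitrogen starvation the median member stood at 0.18, 0.03, -2.79, -3.60, -2.65 and -1.87 from 10 to 480 min. It was thus within 0.28 of the median of all genes for the first 30 min and 12.1-fold below the zero timepoint at 120 min. In carbon starvation it stood at -0.58, -0.54, -1.60, -4.19, -4.02 and -2.53 from 10 to 480 min, an 18.3-fold reduction at 120 min. The -0.58 and -0.54 of the first 30 min were close to the median of all genes on those arrays (-0.57 and -0.48), and with each array centred on that median they became -0.02 and -0.07. The -1.60 at 60 min, where the median of all genes was -0.97, became -0.65 with that centring, -0.93 with no further scaling and -0.48 with normexp background correction and loess. Likewise the 0.03 at 30 min of nitrogen starvation became -0.03, whereas from 60 min on the median member was negative under all 8 other ways of scaling, correcting or filtering the signals.

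**Figure D1:**
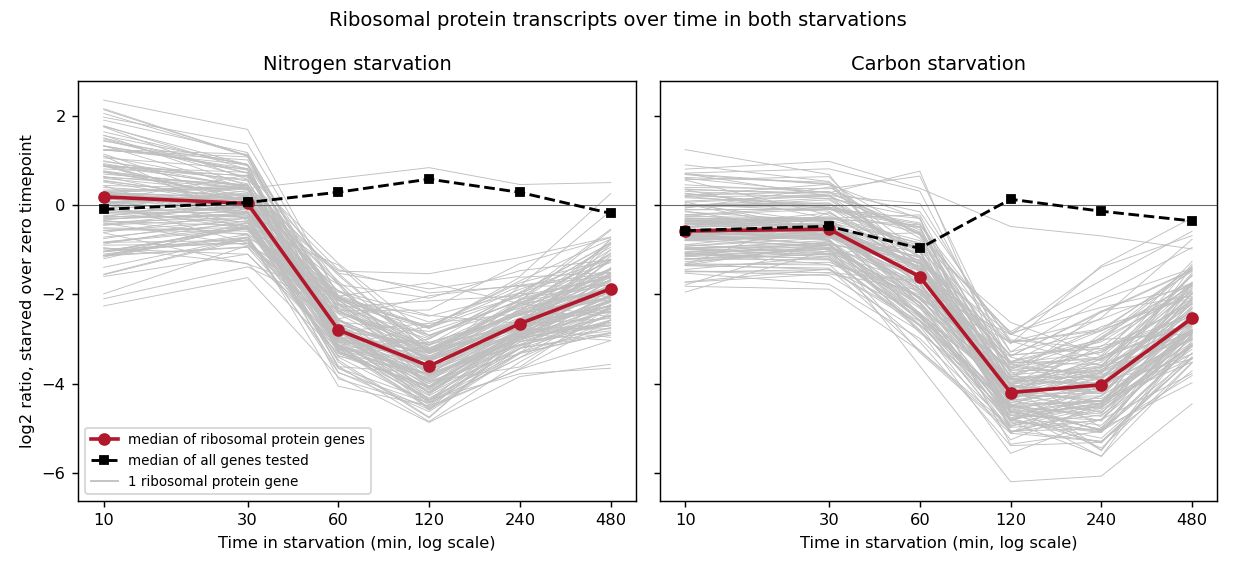
The log2 ratio of starved over zero-timepoint signal is drawn against time in minutes (log axis) for each of the 137 ribosomal protein genes (grey), their median (red) and the median of all genes tested (black, dashed), in nitrogen starvation (left) and carbon starvation (right), with 1 array per point. The member median fell to -3.60 at 120 min of nitrogen starvation and to -4.19 at 120 min of carbon starvation, and the topmost grey line at 120 min, RPL15B, stood at 0.83 and -0.48 there.

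The 2 courses differed in their timing. The main step of nitrogen starvation came between 30 and 60 min, when the median member dropped by 2.76 and 136 of the 137 genes went down, against 41.6% of all genes. The main step of carbon starvation came between 60 and 120 min, when the median member dropped by 2.48 and all 137 genes went down, against 31.3% of all genes. Under the other ways of scaling, correcting or filtering the signals, the change of the median member over that interval lay between -3.62 and -2.12. The lowest value lay at 120 min for 124 members in nitrogen starvation and for 89 in carbon starvation, where it lay at 240 min for 47 others. The rise that followed was as general. In nitrogen starvation 131 of 133 members with both values were higher at 480 than at 120 min, against 22.1% of all genes, and in carbon starvation 135 of 137 were, against 27.4%. The median rise from 120 to 480 min was 1.68 in both, or 3.21-fold. RPL15B was an exception in each starvation, RPL18B in nitrogen starvation and RPL9A in carbon starvation. These steps compare single arrays and have no replicate check, and the 60 min array of carbon starvation is among the 4 named above.

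The fall was visible in the signal itself. The 219 spots of the members gave 19.6 to 24.0% of all green signal on the 12 arrays. Their share of the red signal was 26.0, 21.3, 4.18, 1.81, 3.47 and 6.20% from 10 to 480 min of nitrogen starvation. In carbon starvation it was 15.9, 15.6, 10.3, 1.42, 1.70 and 4.50% over the same times. Because a loss of this size enters the equal totals, the scaling was repeated without the member spots. The median over members, averaged over the 6 arrays, then became -1.97 in place of -1.79 in nitrogen starvation and -2.45 in place of -2.24 in carbon starvation. With equal amounts of RNA on each array, less message per cell and a larger share of other RNA cannot be told apart.

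Over the 6 times, 91 of the 137 members were lowered in nitrogen starvation (66.4%) at an adjusted p under 0.05 in limma's moderated test, with Benjamini-Hochberg adjustment over the 5578 genes tested, of which 19.4% were lowered. In carbon starvation 118 members were lowered (86.1%), against 40.2% of all genes. The median of the members' means was -1.74 in nitrogen starvation and -2.20 in carbon starvation, beside 0.18 and -0.37 for all genes. None was called higher, and only RPL15B was higher in nitrogen starvation at an unadjusted p under 0.05, while 22.1% of all genes were called higher in nitrogen starvation and 16.4% in carbon starvation. If the same zero-timepoint RNA served both starvations, which was not established here, the calls of one are not independent of those of the other.

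The calls depended on the processing and on the arrays that entered. With normexp and loess the carbon starvation count was 61 in place of 118, below the 83 of nitrogen starvation. With median centring 80 members were lowered in carbon and 84 in nitrogen starvation. The median over members, averaged over arrays, was then -1.96 in nitrogen and -1.88 in carbon starvation, and -1.80 and -1.59 with normexp and loess. Carbon starvation had the lower median under the other ways of scaling, correcting or filtering, so this order depended on the scaling. With 120, 240 and 480 min alone, 135 of 137 members were lowered in nitrogen starvation (21.3% of all genes) and all 137 in carbon starvation (37.8%). The 2 exceptions were RPL41A and RPL15B, which was raised, as were 32.2% of all genes. With the 8 arrays alone, 133 were lowered in nitrogen starvation (24.3% of all genes), the exceptions being RPL15B, RPL25, RPL41A and RPL41B, and 137 in carbon starvation (37.3%), and RPL15B was raised in nitrogen starvation with 36.0% of all genes. The nitrogen starvation count fell to 43 without the 120 min array of nitrogen starvation, 49 without its 60 min array, 52 without its 240 min array and 60 without its 480 min array.

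In the main fit, where the SE holds the course over time, 46 members were not called in nitrogen starvation and 19 were not called in carbon starvation. These 19 were RPL12B, RPL15B, RPL25, RPL29, RPL34A, RPL34B, RPL37A, RPL41A, RPL41B, RPL42B, RPL4A, RPL9B, RPS22A, RPS24B, RPS29A, RPS29B, RPS30A, RPS30B and RPS31. RPL25, whose protein sits at the rim of the exit tunnel, was the highest member at 10 and 30 min of nitrogen starvation. Its values were 2.34, 1.69, -2.04, -3.28, -2.26 and -1.09 from 10 to 480 min of nitrogen starvation, and 0.68, 0.46, -1.47, -4.03, -3.45 and -2.08 from 10 to 480 min of carbon starvation. It was above the member median on all 12 arrays, and its means of -0.77 (SE 0.75, n = 6) in nitrogen and -1.65 (SE 0.75, n = 6) in carbon starvation did not pass (adjusted p = 0.42 and 0.0769, limma). RPS31, which is made as a fusion with ubiquitin, likewise gave 1.43, 0.91, -1.75, -3.81, -2.97 and -0.76 in nitrogen starvation and 0.60, 0.27, 0.76, -4.03, -2.98 and -1.38 in carbon starvation.

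The members did not all move alike in the first 30 min of nitrogen starvation, but their SD was below that of all genes. At 10 min 27 members were above 1 and 19 below -1, shares of 19.7 and 13.9% against 16.8 and 19.2% of all genes. RPL25 (2.34), RPS29A (2.15) and RPL29 (2.13) were the highest, and RPL20A (-2.26), RPL4B (-2.10) and RPS8A (-1.99) the lowest. At 30 min the order of the members was much the same with a smaller spread. The SD over members was 0.97 at 10 min and 0.63 at 30 min, beside 1.13 and 0.92 over all genes. Between the 2 arrays r was 0.89 over the 137 members, which share a reference and probes, and 0.70 over all genes. Only the 30 min array of this pair is among the 8.

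Whether the members responded differently to the 2 starvations was tested with the contrast of nitrogen minus carbon in the same fit. No member was called, and none had an unadjusted p under 0.05 in limma, while 10.0% of all genes were called higher and 0.502% lower in nitrogen starvation. The median difference was 0.50 over members and 0.39 over all genes, with a median SE of 0.82 over members, so that a difference above 1 could go uncalled. Single members ranged from -0.80 (RPL4A) to 1.22. At 120, 240 and 480 min, 100 of the 134 members with a value on all 6 arrays were higher in nitrogen than in carbon starvation each time (74.6%, against 40.6% of all genes).

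In the fit restricted to these 3 times, 7 members were higher in nitrogen than in carbon starvation, or 5.11%, against 16.6% of all genes. With the 8 arrays 8 were, against 18.6%. Those arrays set 30 to 480 min of nitrogen starvation against 120 to 480 min of carbon starvation, so starvation and time cannot be told apart there. In the fit of the 3 times, RPL15B averaged 0.60 in nitrogen and -0.72 in carbon starvation, a difference of 1.32 (SE 0.32, n = 3 each, limma adjusted p = 0.0144). RPL24B, at the interface of the subunits, averaged -1.59 in nitrogen and -3.19 in carbon starvation, which differed by 1.59 (SE 0.47, n = 3 each, limma adjusted p = 0.0335). RPL18B averaged -2.15 in nitrogen and -3.60 in carbon starvation (1.45, SE 0.40, n = 3 each, limma adjusted p = 0.0255). The other 4 were RPL14A, RPS11B, RPS21B and RPS28B, with differences of 1.24 to 1.47 and adjusted p of 0.0439 to 0.0468. RPL18B was well above background in red on 3 of the 6 carbon arrays. In a fit of all 12 arrays with time as a block, none of the 7 passed (limma adjusted p = 0.0621 to 0.386). At these 3 times the median of all genes was 0.58, 0.28 and -0.19 in nitrogen starvation and 0.13, -0.14 and -0.36 in carbon starvation. The differences hold this shift, and whether they remain under other scaling was not tested.

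A straight line over log2 time described the members poorly, because most of them fell and then rose. All 137 slopes were below 0 in each starvation, with medians of -0.51 per doubling of time in nitrogen and -0.61 in carbon starvation, beside 0.01 and 0.05 for all genes. In nitrogen starvation 1 slope passed (0.73%, against 0.52% of all genes), that of RPL9A, which fell by 1.07 per doubling of time (limma adjusted p = 0.0314). None passed without the 10, 30 or 240 min array of nitrogen starvation or the 240 min array of carbon starvation. RPL9A stood at 1.22, 1.08, -2.68, -4.35, -3.77 and -3.65 over that course and was the lowest member at 480 min. In carbon starvation 24 slopes passed (17.5%, against 9.45% of all genes). This count went to 0 without the 10 min, the 30 min or the 240 min array of carbon starvation, to 7 without the 240 min and 15 without the 10 min array of nitrogen starvation, and to 45 without the 480 min array of carbon starvation. No slope of any gene differed between the starvations.

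The subunits moved together. In nitrogen starvation 50 of 76 RPL genes, 4 of 5 stalk genes and 37 of 56 RPS genes were lowered, against 19.4% of all genes. In carbon starvation 64 of 76 RPL genes, 5 of 5 stalk genes and 49 of 56 RPS genes were, against 40.2%. The median of the large subunit, stalk included, exceeded that of the small subunit by 0.07 ± 0.14 in nitrogen starvation and by 0.07 ± 0.17 in carbon starvation (mean and SD of the per-array differences, n = 6 each), and lay between -0.13 and 0.32 on single arrays. Over all 12 arrays it averaged 0.07, and 0.14 with normexp and equal totals. The difference was thus smaller than its spread over arrays, while both medians were at -3.49 or lower at 120 min.

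**Figure D2:**
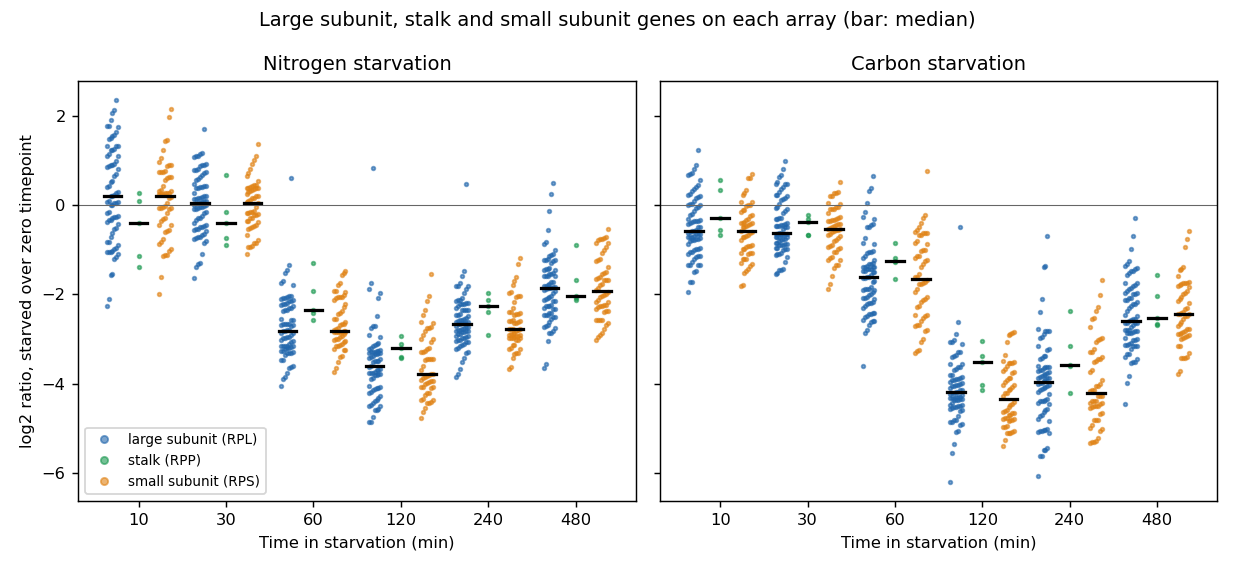
Each point is the log2 ratio of 1 gene on 1 array in nitrogen starvation (left) and carbon starvation (right), by time in minutes, for genes of the large subunit (blue), the stalk (green) and the small subunit (orange); black bars are medians. The blue and orange columns overlap at every time, and large minus small medians, stalk counted with the large subunit, ran from -0.13 to 0.32.

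The stalk is the part of the large subunit that binds elongation factors, with RPP0 as the base on which the P1 and P2 proteins assemble. RPP0 stood at -1.39, -0.73, -1.92, -3.12, -1.98 and -2.04 from 10 to 480 min of nitrogen starvation and at -0.57, -0.66, -1.18, -3.04, -3.59 and -1.56 from 10 to 480 min of carbon starvation. It was thus below 0 on all 12 arrays, with means of -1.86 in nitrogen starvation (SE 0.40, n = 6, limma adjusted p = 0.00261) and -1.77 in carbon starvation (SE 0.40, n = 6, limma adjusted p = 0.00202). RPP1A averaged -2.06 in nitrogen and -1.93 in carbon starvation, RPP1B -1.57 and -1.78 in that order, and RPP2A -1.96 and -2.23, and all 3 were lowered in both. RPP1B lost its call in 4 of 25 alternatives in nitrogen starvation and in 7 in carbon starvation, where its mean was -0.82 (limma adjusted p = 0.109, n = 6) after normexp correction with totals set equal. RPP1A lost its call in 3 of them in carbon starvation. RPP2B averaged -1.08 in nitrogen starvation, which did not pass (SE 0.47, n = 6, limma adjusted p = 0.0815), and -1.55 in carbon starvation, which did (SE 0.47, n = 6, limma adjusted p = 0.0129) but not in 5 of the 25 alternatives. RPP2B was above RPP2A on all 12 arrays. The stalk median was -3.21 at 120 min of nitrogen starvation and -3.51 at 120 min of carbon starvation.

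The lowest member was RPL20A, a gene of the large subunit. It stood at -2.26, -1.63, -3.85, -4.86, -3.84 and -3.56 in nitrogen starvation and at -1.95, -1.01, -3.60, -6.19, -6.06 and -4.44 in carbon starvation. It was below the member median on all 12 arrays, by 1.59 on average, and the lowest of the members on 9 of them. Its means of -3.33 in nitrogen starvation (SE 0.62, n = 6, limma adjusted p = 0.00112) and -3.88 in carbon starvation (SE 0.62, n = 6, limma adjusted p = 0.000191) both passed. After it in nitrogen starvation came RPL38 (-2.71), RPL17B (-2.69), whose protein lines the exit tunnel, and RPL2B (-2.68), whose protein lies close to the peptidyl transferase centre. After it in carbon starvation came RPS4A (-3.45), RPS1B (-3.26) and RPS11B (-3.24), all of the small subunit. Within each starvation these 3 means differed from each other by less than their SE of 0.54 to 0.69.

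The highest member was RPL15B. Its values were 1.33, 0.37, 0.60, 0.83, 0.46 and 0.50 from 10 to 480 min of nitrogen starvation, all above 0, and 0.80, 0.98, 0.37, -0.48, -0.69 and -0.98 from 10 to 480 min of carbon starvation, the last 3 below 0. Both channels were well above background on all 12 arrays. It stood above the member median on all 12 arrays, by 2.35 on average. Its mean of 0.68 in nitrogen starvation missed the threshold with 12 arrays (SE 0.27, n = 6, limma adjusted p = 0.0536) and passed with the 8 arrays (0.55, limma adjusted p = 0.0125). The mean of -0.00 in carbon starvation (SE 0.27, n = 6, limma adjusted p = 0.997) became -0.72 with the 3 carbon arrays among the 8 (limma adjusted p = 0.0101). It was the only member with a mean above 0 in nitrogen starvation.

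Next to RPL15B stood genes of very small proteins. RPL41A and RPL41B, which encode the same peptide, the smallest of the ribosome, averaged -0.59 and -0.51 in nitrogen starvation and -0.80 and -0.82 in carbon starvation, none of which passed (adjusted p = 0.184 to 0.472, limma, n = 6 each). RPL41A stood at 1.14, 0.04, -1.52, -1.88, -1.59 and 0.25 in nitrogen starvation and at 0.90, 0.52, -1.50, -3.10, -1.36 and -0.29 in carbon starvation, a shallower trough with a faster return than the median member. RPS30A, made as a fusion with a ubiquitin-like sequence in mammals but not in yeast, averaged -0.66 in nitrogen and -0.93 in carbon starvation. RPS29B, a small zinc-binding protein of the small subunit, averaged -0.65 in nitrogen and -1.09 in carbon starvation. These 4 exceeded the member median by 1.15 to 1.35 on average, RPL41A, RPS30A and RPS29B on 12 of 12 arrays and RPL41B on 11.

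The order of the members followed the size of the gene loosely. Against the genomic span in RefSeq's R64 annotation, introns included, the mean deviation from the member median had r = -0.40 and a Spearman rho of -0.42 over the 137 genes, which share arrays, dyes and scaling and are not independent. Of the 8 genes with a span of up to 300 bases, 6 lay above the member median, RPL41A and RPL41B (78 bases each) and RPS29A and RPS29B (171 bases each) among them. RPL38 (237 bases) and RPS28B (204 bases) lay below it, by 0.88 and 0.22. How the length of a message acts on labelling or probe signal was not tested.

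**Figure D3:**
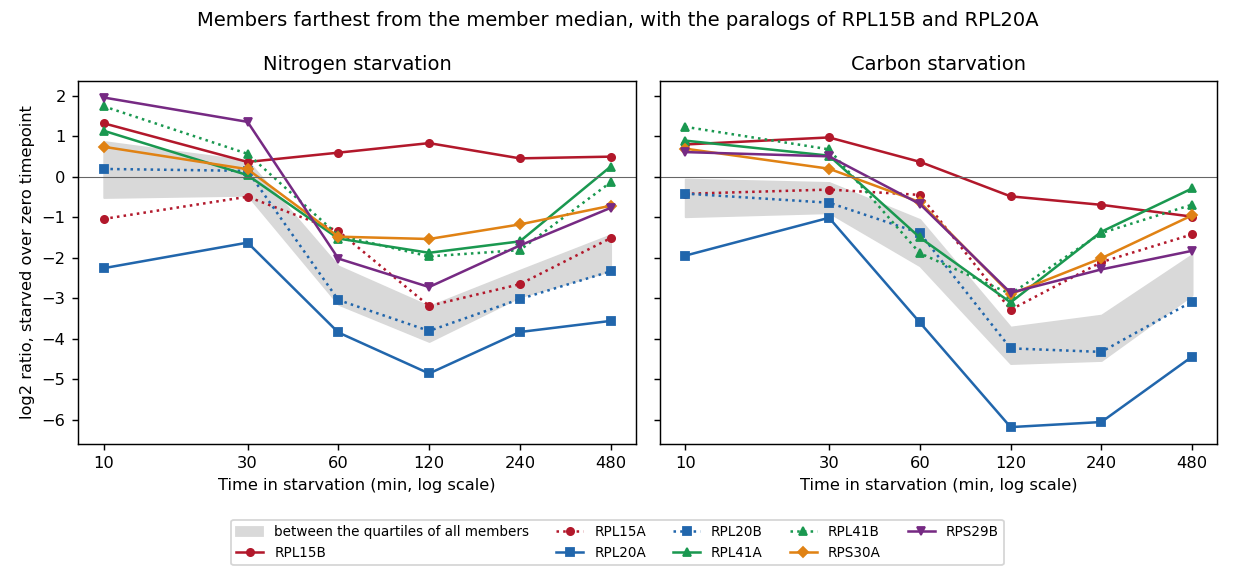
The log2 ratio of starved over zero-timepoint signal is drawn against time in minutes (log axis) for the 6 members farthest from the member median and for RPL15A and RPL20B, the paralogs of 2 of them, in nitrogen starvation (left) and carbon starvation (right). The grey band runs from the lower to the upper quartile of the 137 members; RPL20A lay under it on all 12 arrays, down to -6.19, and RPL15B over it from 60 min on.

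Of the members, 118 form 59 pairs of A and B paralogs and 19 have no paralog among the members. Paralogs can be so alike that probes of one take up transcripts of the other, so a small difference within a pair is uncertain and a large one, if signal was shared, is understated. The mean A minus B difference over the 12 arrays was under 0.25 in size in 31 pairs, with a median of 0.23 over all 59 and a median SD over arrays of 0.40. It exceeded 1 in at least 1 starvation in 4 pairs, RPL15, RPL20, RPS26 and RPL7. RPL34 had the smallest, -0.00 ± 0.37 (SD, n = 12), while RPL35A and RPL35B stayed closest array by array, at -0.04 ± 0.05 (SD, n = 12).

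**Figure D4:**
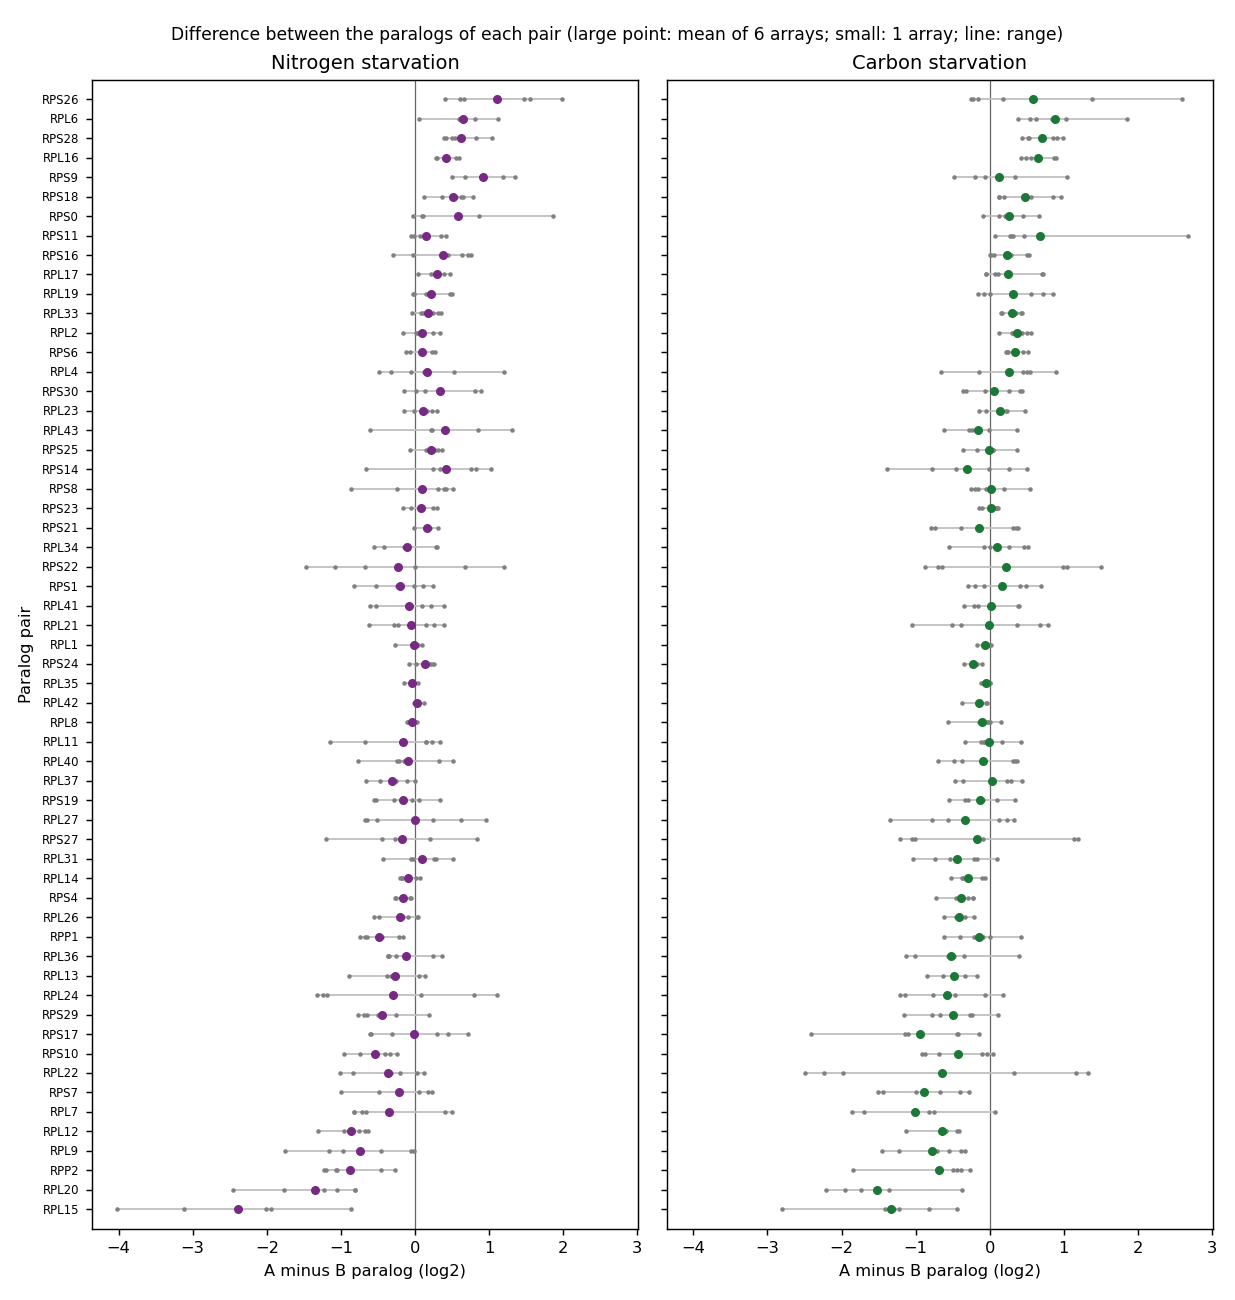
The A minus B difference in log2 ratio is drawn for 58 of the 59 paralog pairs, sorted by the mean over 12 arrays, in nitrogen starvation (left) and carbon starvation (right); large points are means over 6 arrays, small points single arrays and grey lines their range. RPL15 and RPL20 lie at the bottom with means over 12 arrays of -1.86 and -1.44, and RPS26 at the top with 0.85.

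The RPL15 pair parted most. RPL15A stood at -1.04, -0.49, -1.34, -3.19, -2.65 and -1.51 in nitrogen starvation and at -0.42, -0.31, -0.45, -3.29, -2.11 and -1.42 in carbon starvation. Its means of -1.71 (SE 0.41, n = 6, limma adjusted p = 0.00549) in nitrogen starvation and -1.33 (SE 0.41, n = 6, limma adjusted p = 0.0139) in carbon starvation passed, where those of RPL15B did not. A minus B was -2.39 ± 1.08 in nitrogen and -1.33 ± 0.81 in carbon starvation (SD, n = 6 each), below 0 on all 12 arrays and lowest, at -4.03, at 120 min of nitrogen starvation. In the RPL20 pair A minus B was -1.35 ± 0.65 in nitrogen and -1.53 ± 0.64 in carbon starvation (SD, n = 6 each), again below 0 on all 12. RPL20B itself, at -1.98 in nitrogen and -2.35 in carbon starvation, lay close to the median member.

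In the RPS26 pair, whose protein lies where the message leaves the small subunit, A minus B was 1.11 ± 0.64 in nitrogen starvation, above 0 on all 6 arrays, and 0.59 ± 1.16 in carbon starvation (SD, n = 6 each). The carbon values ran from -0.25 to 2.60, with the 2 highest at 240 and 480 min. In the RPL7 pair A minus B was -0.35 ± 0.63 in nitrogen and -1.01 ± 0.71 in carbon starvation (SD, n = 6 each), with -1.70 and -1.86 at 240 and 480 min of carbon starvation. RPL7B was well above background in red on 4 of 6 nitrogen arrays and 1 of 6 carbon arrays, so its late carbon values are poorly measured.

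Besides RPL15 and RPL20, the B paralog lay above the A paralog on all 12 arrays in RPS4, RPL9, RPL12 and RPP2. The A paralog lay above the B paralog on all 12 in RPS18, RPL16, RPS28 and RPL6. RPL16A was above RPL16B by 0.42 ± 0.13 in nitrogen and 0.65 ± 0.20 in carbon starvation (SD, n = 6 each), and RPS28A above RPS28B by 0.62 ± 0.25 and 0.71 ± 0.24 in the same order. RPL12A was below RPL12B by 0.87 ± 0.25 in nitrogen and 0.64 ± 0.26 in carbon starvation (SD, n = 6 each).

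Other pairs changed sign between early and late arrays, so that their means hid larger differences at single times. These pairs were picked after their values were seen. In carbon starvation RPL22A minus RPL22B was 1.32, 0.32 and 1.16 from 10 to 60 min and -1.98, -2.23 and -2.49 from 120 to 480 min, with RPL22A at -5.05 and RPL22B at -3.07 at 120 min. RPL22B was well above background in red on 4 of these 6 arrays. RPS22A minus RPS22B was 1.19, 0.68, -1.08, -1.47, -0.67 and 0.00 over nitrogen starvation, and 1.04, 0.99, 1.50, -0.70, -0.88 and -0.64 over carbon starvation. In both pairs the A paralog was the higher early and the lower at 120 min. The carbon arrays from 10 to 60 min are all among the 4 that did not match the published table. Those from 120 to 480 min are among the 8 that did. The sign changes in carbon starvation fell between these sets of arrays, so time and array set cannot be told apart there. The RPS22 values of 0.68 and -1.08 in nitrogen starvation both come from the 8 arrays.

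Among the 19 members with no paralog, 9 were lowered in nitrogen starvation (19.4% of all genes) and 16 in carbon starvation (40.2% of all genes), with medians of -1.52 in nitrogen and -2.03 in carbon starvation. Among the 118 paired members 82 were lowered in nitrogen starvation and 102 in carbon starvation, with medians of -1.76 in nitrogen and -2.26 in carbon starvation. RPL3, close to the peptidyl transferase centre, averaged -1.92 in nitrogen and -2.02 in carbon starvation, and RPS3, at the entry of the message channel, -1.77 and -2.42 in that order, and all 4 means passed. RPL10 and RPL32 had no value at 120 min of nitrogen starvation. The single spot of RPL10 was dim in both channels there, and RPL32 carried an outlier mark. Their means in nitrogen starvation, -1.36 and -1.09, thus rest on 5 arrays without the lowest time. RPL8A and RPS27B also had no value there, because of outlier marks, and their means likewise rest on 5 arrays.

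The members lie on 15 chromosomes, and 10 neighbouring couples of members follow each other directly in the R64 gene table. RPS14B and RPS22A, next to each other on chromosome X, averaged -1.85 and -1.73 in nitrogen starvation and -1.61 and -1.65 in carbon starvation. Yet at 10 min of nitrogen starvation RPS14B stood at -1.14 and RPS22A at 1.45. RPS16B and RPL13A, next to each other on chromosome IV, averaged -2.25 and -2.45 in nitrogen starvation and -2.50 and -3.02 in carbon starvation.

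Genes of regulators that act on ribosomal protein genes or on ribosome biogenesis genes were counted in the same fit. Of 15 such genes, 3 were lowered and 0 raised in nitrogen starvation (RAP1, IFH1 and TOD6), and 7 were lowered and 1 raised in carbon starvation, shares near the 19.4 and 40.2% of all genes lowered there. The median of the list was -0.08 in nitrogen and -0.68 in carbon starvation. RAP1, the factor that binds most of these promoters, stood at -1.13, -0.70, -0.82, -0.14, -0.46 and -1.04 in nitrogen starvation and at -2.13, -1.60, -2.46, -1.37, -2.02 and -1.56 in carbon starvation. Its mean of -0.71 in nitrogen starvation and -1.86 in carbon starvation differed by 1.14 (SE 0.20 for each mean, n = 6 each, limma adjusted p = 0.0237). The median difference over all genes was 0.39, and 10.0% of them were called higher in nitrogen starvation. The median of all genes averaged 0.15 over the nitrogen arrays and -0.40 over the carbon arrays, and the RAP1 values hold this shift. Whether the RAP1 difference holds under other scaling was not tested. IFH1, the co-activator, averaged -1.08 in nitrogen and -1.11 in carbon starvation (limma adjusted p = 0.00232 and 0.000995, n = 6 each).

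TOD6, listed on the array as YBL054W, encodes a repressor that binds promoters of ribosome biogenesis genes. It stood at -0.37, -2.69, -5.17, -4.83, -3.05 and -2.63 in nitrogen starvation and averaged -3.12 there (SE 0.49, n = 6, limma adjusted p = 0.000461), against -1.66 in carbon starvation (limma adjusted p = 0.0114, n = 6). It was already down at 30 min, when the median member was at 0.03. CRF1 (YDR223W), a co-repressor of ribosomal protein genes, was the only regulator raised. It stood at 4.88, 5.86 and 4.94 at 120, 240 and 480 min of carbon starvation, with a mean of 3.09 (SE 0.82, 5 arrays, limma adjusted p = 0.00735), against 1.46 in nitrogen starvation (limma adjusted p = 0.171, 5 arrays). The zero-timepoint channel was well above background on 3 of the 6 nitrogen arrays and 2 of the 6 carbon arrays for this gene. HMO1, which binds many of these promoters, and TBF1 averaged -0.34 and -0.54 in nitrogen starvation, which did not pass, and -0.82 and -1.22 in carbon starvation, which did, and the difference between the starvations passed for neither (limma adjusted p = 0.29 and 0.165).

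Most genes of a list of proteins that sit on the ribosome without a ribosomal protein name were lowered too. Of 13, 8 were lowered in nitrogen starvation and 10 in carbon starvation, against 19.4 and 40.2% of all genes, and 0 were raised in either, with medians over the 13 of -1.19 in nitrogen and -2.01 in carbon starvation. ASC1, a scaffold of the small subunit head, stood at -0.62, 0.33, -1.79, -3.36, -2.93 and -2.06 in nitrogen starvation and at -1.04, -0.78, -0.81, -3.62, -3.65 and -2.13 in carbon starvation, a course close to that of the median member. Its means were -1.74 in nitrogen starvation (SE 0.50, n = 6, limma adjusted p = 0.0139) and -2.0 in carbon starvation (SE 0.50, n = 6, limma adjusted p = 0.00400). SSB1 and SSB2, chaperones of the nascent chain, averaged -2.73 and -2.53 in nitrogen starvation and -2.66 and -2.30 in carbon starvation. EGD2, a subunit of the nascent polypeptide-associated complex, averaged -0.25 in nitrogen and -0.09 in carbon starvation and passed in neither (limma adjusted p = 0.59 and 0.85).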

How the data were processed

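Each two-colour array set Cy5-labelled RNA of starved cells against Cy3-labelled RNA of the zero timepoint. The authors deposited Agilent Feature Extraction output with an intensity per spot and channel, in which the processed signal is corrected for background and dye-normalized by LOWESS, per the file headers. The deposited log10 ratio of each spot comes from these signals, and a deposited series table of log2 ratios equals it within 5e-04. The methods of the paper state that total red and total green were made equal. Here this was done on each array over the processed signals of 10263 non-control spots. Spots marked as outliers, or dim in both channels, were dropped, and the rest were averaged by systematic name. All 5578 of 6256 genes that kept 4 or more values per starvation entered one fit with limma 3.58.1 in R 4.3.3 (lmFit, eBayes), with a mean per starvation, or with an intercept and a slope over log2 minutes, and p-values were adjusted over all of them at 0.05. Duplicate spots of members had an SD of 0.0456 to 0.136, and precision is limited by there being 12 arrays. They lie on 10 slides, and 2 slides hold 2 arrays each, of both starvations at different times. All 137 members matched a locus tag and symbol of RefSeq's R64 gene table; the genome build behind the probes is not given in the sources used here. Nothing in the labels says that arrays came from separate cultures, so p-values measure the spread between these arrays.

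The members, the lists of regulators, ribosome-associated, ammonium-repressed and glucose-repressed genes and the tests were chosen with earlier results of these data known. The genes named are the 4 lowest and 4 highest means of each starvation, the 6 farthest from the member median, the stalk genes, the 3 pairs that differ most in each starvation and the pair that differs least, ASC1, and up to 6 regulators that passed; others named were chosen after their values were seen. One gene of the rule is counted among the members but its own values and its pair are not reported here. The script was tested on simulated data. The following were tried in place of the main choices: normexp (offset 50) followed by loess or by equal totals, no further scaling, median centring, totals without member spots, the series table, no filter on dim spots, no saturated spots, a trended robust variance, slide as a random block, time as a block, each array left out, the 8 arrays that match the published table, and 120 to 480 min alone.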

Additional observations from a re-analysis of the deposited data

How the results depend on the processing

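The count of members lowered in carbon starvation, 118, was 61 with normexp and loess, 80 with median centring and 93 with no further scaling or with the series table. With any 1 array left out it was 91 to 129. In nitrogen starvation the count, 91, was 83 with normexp and loess, 84 with median centring and 88 with no further scaling or with the series table. With any 1 array left out it was 43 to 117. The median over members, averaged over arrays, lay between -2.18 and -1.42 in nitrogen and between -2.58 and -1.86 in carbon starvation with 1 array left out, and large minus small, 0.07 over 12 arrays, between 0.05 and 0.09; it was 0.14 with normexp and equal totals or with 120 to 480 min alone and 0.12 with the 8 arrays. Slopes called in nitrogen starvation, 1, were 3 with normexp and equal totals, 4 with a trended robust variance, 11 with the slide as a block and 0 to 2 with 1 array left out. Slopes called in carbon starvation, 24, were 4 with normexp and loess, 0 with normexp and equal totals, 13 with no further scaling, 10 with median centring, 13 with the series table, 40 with the robust variance and 0 to 45 with 1 array left out; the causes were not tested. Members called different between the starvations, 0, were 8 with the 8 arrays (which hold other times in each starvation), 7 with 120 to 480 min alone and 0 with any 1 array left out.

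Arrays of the same time share only that time: their deviations from the starvation means correlated at 0.45 to 0.65 over genes, but at -0.40 at 60 min. With the time point as a replicate block 134 members were lowered in nitrogen starvation and 136 in carbon starvation. In that fit 4 members were called higher in nitrogen than in carbon starvation (RPL11B, RPS1B, RPS25A and RPS4A), against 14.6% of all genes. The 7 members that passed at 120 to 480 min alone are not among these 4 (adjusted p = 0.0621 to 0.386 in limma). Of the values of single genes and pairs under these settings, 889 kept their direction and side of the threshold, 33 passed it newly and 22 no longer passed it, 19 of them of RPP1A, RPP1B and RPP2B and 3 of RPS1B. Another 16 changed sign around a value near 0, the mean of RPL15B in carbon starvation (-0.72 to 0.36, above 0 in 9 of 25 settings) and the RPL34 difference (-0.12 to 0.05). Red signal was well above background on 4 or fewer of the 6 carbon arrays for RPL7B, RPL18B, RPL22B and RPL31B, and 5 member spots were saturated in red at 30 min of nitrogen starvation.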
